A study of Bos taurus with 39 samples.

Results

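The CBX group held bovine oocytes matured inside their cumulus oocyte complexes while carbenoxolone, a gap junction blocker, was present in the medium. Its miRNAs were sequenced after 1 h, 6 h and 22 h of in vitro maturation in 3 libraries per time, so that the 9 CBX libraries made up 9 of the 39 libraries of the series. The members were chosen by label alone, as every CBX library at these times, and were compared from 1 h to 6 h, from 6 h to 22 h and from 1 h to 22 h.

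The study asked how contact with cumulus cells shapes the small RNA content of the maturing oocyte. The times were meant to catch the intact germinal vesicle, its breakdown and metaphase II. Beside CBX the series held 3 other cultures with 9 libraries each at the same times, namely intact complexes without blocker (control), denuded oocytes sharing medium with complexes (co-culture) and denuded oocytes alone (DO). All ovaries came from a slaughterhouse, many oocytes were merged into each library, and in the CBX and control groups the cumulus was taken off with hyaluronidase and vortexing before lysis. No denuded oocytes with carbenoxolone were sequenced here, so effects of the drug on gap junctions and on the oocyte itself cannot be told apart. The labels did not tie the replicate number to separate animals, and p-values therefore measured the spread between libraries only.

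Cumulus cells reach the oocyte through transzonal projections, whose gap junctions pass ions, nucleotides and other small molecules in both directions. The oocyte stops transcribing as it resumes meiosis, so its small RNA content during maturation is shaped mainly by storage, decay and possible supply from outside. An miRNA guides Argonaute proteins to messenger RNAs that match its seed, the short stretch near its 5′ end, and miRNAs with the same seed form a family. Predicted miRNAs, named here by their number, were candidates that the study's software found in its reads and that the reference catalogue did not hold.

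Sequences of some of the miRNAs compared below are shown first, as listed in the study's supplementary tables. That of miR-21-5p was listed there as the target of a PCR assay. No sequence was at hand for miR-206, miR-155, miR-1246 or miR-184. Predicted miR-906, miR-162, miR-79 and miR-895 had levels that did not overlap between 1 h and 22 h, predicted miR-559 and miR-895 differed in time course from DO, and miR-21-5p was on the granulosa and cumulus list. Capitals mark the seed, bases 2 to 8 from the 5′ end.
predicted miR-906: gAGGGAUCccugccuagcggg
predicted miR-162: uCCAUCUGgacggcuuggcauuggg
predicted miR-79: uGCAAGAUuuuaagcaugaccuu
predicted miR-559: gGCGCGCCcccgccgcgc
predicted miR-895: gCGCCCCCggggccgcgg
miR-21-5p: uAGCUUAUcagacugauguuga

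Positions were listed on the ARS-UCD1.2 build, as intervals around the mature sequence, and no gene annotation of that build was used here. Predicted miR-906 lay on the mitochondrial genome at chrM:16169-16279 on the minus strand. Predicted miR-162 was placed at chr13:76526680-76526794 (minus), predicted miR-79 at chr11:97182562-97182675 (minus), predicted miR-559 at chr27:6219131-6219238 (minus) and predicted miR-895 at chr9:93405029-93405136 (plus). Predicted miR-559 and miR-895 consisted of G and C alone (GC content 100%), whereas GC content was 71.4% in predicted miR-906, 60% in predicted miR-162 and 34.8% in predicted miR-79. Among the 19 sequences at hand no seed occurred more than once, although predicted miR-559 shared a run of 17 bases with predicted miR-318-0.

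The tables listed 1995 miRNAs, 1030 known and 965 predicted, and 370 of the predicted ones had the same counts as another in every library. CBX libraries held 18796 to 146599 miRNA counts (median 87344), and the smallest by far was replicate 2 at 22 h. A level of 3 counts therefore stood for 20.5 to 159.6 CPM, counts scaled to a common library size. These floors use library totals, while the levels given next also carry TMM scaling factors. Known miRNAs took 43.4% ± 2.56, 42.8% ± 3.62 and 41.8% ± 1.08 of the counts at 1 h, 6 h and 22 h (SD, n = 3 each), and no difference between times was detectable (exact two-sided permutation p = 0.7, 0.9 and 0.5 for 1 h against 6 h, 6 h against 22 h and 1 h against 22 h; the smallest possible is 0.1). With miRNAs of identical counts counted once, the known share was higher, from 44.7% to 51.6% over the CBX libraries. In all 9 libraries 651 miRNAs were detected, 129 of them known.

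Marker lists were read in the same libraries. Of 12 miRNAs linked to granulosa and cumulus cells, 3 (miR-21-3p, miR-212 and miR-214) were at 0 throughout, and the summed level ranged from 8234 to 14126 CPM at 1 h, from 6987 to 10523 at 6 h and from 6631 to 8397 at 22 h. Immune-linked miRNAs, a list that includes miR-155, summed to 3286 to 4876, 3959 to 6323 and 4721 to 7390 CPM. Red blood cell markers stayed at or under 119 CPM and endothelial markers at or under 197 CPM. Other summed levels were not low. Over the 3 times, the epithelial miR-200 list ranged from 4303 to 9487 CPM and the nerve list from 6833 to 13770 CPM. Fibroblast and smooth muscle ranged from 1344 to 2481 CPM. In each of these lists most counts over the 9 libraries came from 1 miRNA, miR-205 (4120), miR-9-5p (8051) and miR-143 (1261). Among other members, miR-141 held 515 counts, miR-199a-3p 126, miR-145 5, and miR-124a and miR-124b 2 and 1. An miRNA table holds no oocyte messenger RNA, so the labelled cell type itself had no defining marker here. In pooled oocytes, fewer cells carrying an miRNA and less of it per cell cannot be told apart.

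Among known miRNAs, miR-16b averaged 67989 ± 9714 CPM over the 9 libraries (SD) and miR-10b 47006 ± 7532 CPM, followed by miR-148a, let-7a-5p, miR-16a, miR-122, let-7f, miR-7, let-7i and miR-30d. miR-16b belongs to a family known for restraining cell cycle genes, and miR-10b lies within a Hox gene cluster. None of these 10 passed the test at any step. From 1 h to 22 h their log2 fold changes ranged from -0.27 (let-7i) to 0.48 (miR-122), from 1 h to 6 h from -0.29 (let-7i) to 0.47 (miR-148a), and from 6 h to 22 h from -0.31 (miR-148a) to 0.33 (let-7a-5p). miR-122, best known from liver, averaged 12925 ± 4253 CPM at 1 h, 16488 ± 7068 at 6 h and 17607 ± 4194 at 22 h (SD, n = 3 each).

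From 1 h to 6 h no miRNA was DE under CBX. Of the 453 tested, 0 passed an adjusted p of 0.05 with a log2 fold change of at least 1 in either direction (0%) in edgeR's quasi-likelihood test with the replicate number as block, and DESeq2 called 0 as well. An unadjusted p under 0.05 was found for 14 miRNAs (3.09%), 7 of them higher and 7 lower at 6 h. Levels did not overlap between the times for 36 miRNAs (7.95%), 16 higher (3.53%) and 20 lower (4.42%) at 6 h. The median log2 fold change of the 118 known miRNAs was -0.12.

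The miRNAs named next were picked after their values were seen, for a low unadjusted p or for levels that did not overlap. miR-202, an miRNA enriched in gonads, stood at 1573, 715 and 1085 CPM in the 1 h replicates 1 to 3 and at 725, 233 and 458 CPM at 6 h. Each replicate number was lower at 6 h, but the time points overlapped, since 715 CPM at 1 h lay below 725 CPM at 6 h. Its log2 fold change was -1.27 (SE 0.35, adjusted p = 0.577 in edgeR). miR-199a-3p, common in stromal and granulosa cells, stood at 389, 155 and 179 CPM at 1 h and 110.5, 89.6 and 50.9 CPM at 6 h. Here every 6 h library lay below every 1 h library, with a log2 fold change of -1.50 (SE 0.49, adjusted p = 0.633 in edgeR).

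miR-497, of the miR-15/16 family, went from 683, 387 and 358 CPM to 297, 197 and 169.5 CPM, and predicted miR-79 from 1867, 1836 and 2828 CPM to 725, 1200.3 and 831 CPM. Neither overlapped between 1 h and 6 h. Their log2 fold changes were -1.07 (SE 0.36, adjusted p = 0.633 in edgeR) and -1.23 (SE 0.36, adjusted p = 0.577). Without replicate 3, let-7e alone was called, with a log2 fold change of -2.26 (adjusted p = 0.00555 in edgeR).

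From 6 h to 22 h miR-206 rose and was the 1 call among 440 miRNAs tested (0.227%). miR-206 is known as a muscle miRNA that promotes myoblast differentiation. At 6 h it stood at 48.3, 53.7 and 203 CPM in replicates 1 to 3, and at 22 h at 1020.4, 202 and 1502 CPM. Each replicate number was higher at 22 h, yet the levels touched, since replicate 2 at 22 h matched replicate 3 at 6 h (exact permutation p = 0.2, where the smallest possible is 0.1). Its log2 fold change was 3.28 (SE 0.51, adjusted p = 0.00117 in edgeR), and DESeq2 called the same single miRNA. The 3.28 rests on small counts at 6 h, namely 7, 3 and 12. The 202 CPM of replicate 2 at 22 h also came from a small count, below the 12 of replicate 3 at 6 h.

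At 1 h miR-206 stood at 17.3, 232 and 886 CPM, so that the 6 h libraries were not below all of the 1 h ones and the log2 fold change from 1 h to 22 h was 1.79 (SE 0.97, adjusted p = 0.421 in edgeR). That longer step was called without replicate 2 (2.33, adjusted p = 9.2e-05 in edgeR) and without replicate 3 (2.76, adjusted p = 0.0251). The rise from 6 h to 22 h lost its call without replicate 1, where the adjusted p was 0.977 in edgeR, and without the replicate block, where it was 0.558. Of the 8 muscle miRNAs listed, 5 were at 0 in every CBX library, miR-133a was among these, and the summed level ranged from 43.2 to 936 CPM at 1 h, 71.7 to 203 at 6 h and 405 to 1538 at 22 h, a sum that includes miR-206 itself. The same miRNA varied widely outside CBX, from 0 to 12693 CPM over the other 27 libraries (median 88.4), and the 3 control libraries with replicate number 2 held 4655, 12693 and 2377 CPM at 1 h, 6 h and 22 h.

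The remaining miRNAs gave no call from 6 h to 22 h in edgeR with all replicates or in DESeq2. An unadjusted p under 0.05 was found for 23 (5.23%), 20 of them higher at 22 h, and levels did not overlap for 19 (4.32%), 12 higher (2.73%) and 7 lower (1.59%). miR-1246, whose sequence resembles part of the U2 small nuclear RNA, stood at 242, 143 and 203 CPM at 6 h and at 1828, 3138 and 156 CPM at 22 h. Replicates 1 and 2 were far higher at 22 h and replicate 3 was not, and the log2 fold change was 2.56 (SE 0.65, adjusted p = 0.190 in edgeR). miR-184, known from epithelia and germ line, stood at 255, 699 and 1271 CPM at 6 h and 1985, 2683 and 1021 CPM at 22 h. The times overlapped through replicate 3, with a log2 fold change of 1.58 (SE 0.52, adjusted p = 0.699 in edgeR). Both were picked after their values were seen, and both were called without replicate 3, miR-1246 at 3.59 (adjusted p = 0.00885 in edgeR) and miR-184 at 2.51 (adjusted p = 0.0166).

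Over the whole span from 1 h to 22 h, edgeR called 0 of 488 miRNAs (0%) and DESeq2 called 4, miR-1246, miR-155 and miR-184 as higher and predicted miR-906 as lower at 22 h. The smallest adjusted p in edgeR was 0.260. An unadjusted p under 0.05 was found for 60 miRNAs (12.3%), 36 higher and 24 lower at 22 h. Levels did not overlap between 1 h and 22 h for 100 miRNAs (20.5%), of which 40 were higher (8.2%) and 60 lower (12.3%) at 22 h. Among known miRNAs 6 were higher and 19 lower in that sense, and the median log2 fold change was -0.26 for known miRNAs and -0.01 for all tested. The count of calls depended on single replicates, since edgeR called 0 without replicate 1, 10 without replicate 2 and 13 without replicate 3.

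miR-155, an miRNA of activated immune cells, had higher levels in every 22 h library than in any 1 h library. Its replicates stood at 1262, 289.9 and 448 CPM at 1 h, at 808, 1075 and 3475 CPM at 6 h and at 2007, 5719.9 and 3712 CPM at 22 h. The 6 h libraries overlapped with both other times. The log2 fold change from 1 h to 22 h was 2.59 (SE 0.74, adjusted p = 0.338 in edgeR), and 1.40 (SE 0.58) and 1.28 (SE 0.41) for the earlier and later step. miR-155 was called from 1 h to 22 h without replicate 2 (adjusted p = 0.000794 in edgeR) and without replicate 3 (adjusted p = 0.0143).

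miR-1246 was higher at each later time in replicates 1 and 2. It went from 86.4, 58.0 and 69.7 CPM in the 1 h replicates to 1828, 3138 and 156 CPM at 22 h. The lowest 22 h library, replicate 3, still lay above all 1 h libraries but under the 6 h libraries of replicates 1 and 3. The log2 fold change from 1 h to 22 h was 3.87 (SE 0.82, adjusted p = 0.260 in edgeR). It starts from low 1 h levels, and the 58.0 CPM of replicate 2 lay near the floor of 3 counts, 59.9 CPM in that library. miR-184 stood at 233, 619 and 607 CPM at 1 h, all below its 22 h levels of 1021 CPM or more, with a log2 fold change of 1.97 (SE 0.48, adjusted p = 0.287 in edgeR). Without replicate 2 or without replicate 3 both miRNAs were called, miR-1246 at 3.20 and 4.90 and miR-184 at 1.88 and 2.60.

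Predicted miR-162 stood at 3544, 3344 and 3574 CPM at 1 h, at 4592, 5464 and 3611 CPM at 6 h and at 7165, 7846 and 6259 CPM at 22 h. No pair of time points overlapped, and the mean went from 3488 ± 125.3 through 4556 ± 927 to 7090 ± 796 CPM (SD, n = 3 each). The log2 fold change was 0.39 (SE 0.30) from 1 h to 6 h, 0.69 (SE 0.27, adjusted p = 0.809 in edgeR) from 6 h to 22 h and 1.02 (SE 0.24, adjusted p = 0.260) from 1 h to 22 h. Predicted miR-475, picked after its values were seen, stood at 77.8, 232 and 99.6 CPM at 1 h and 538, 607 and 240.3 CPM at 22 h, with no overlap and a log2 fold change of 1.84 (SE 0.41). It was called without replicate 2 (adjusted p = 0.00217 in edgeR).

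**Figure D1:**
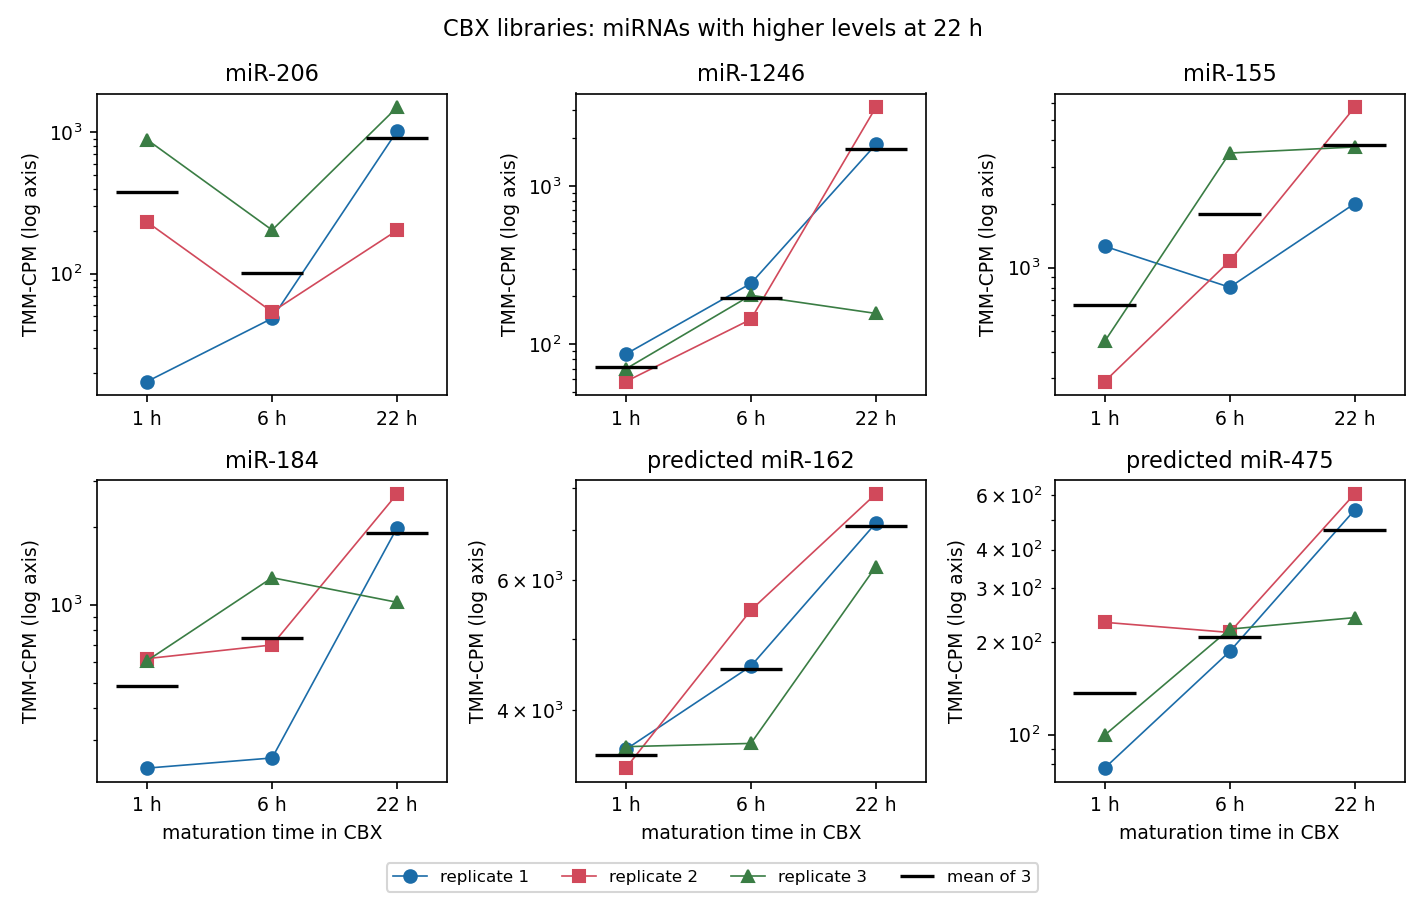
Levels of 6 miRNAs in the 9 CBX libraries, in CPM after TMM scaling on a log axis, against maturation time. Symbols join libraries with the same replicate number and black bars are means of 3; miR-206 dips at 6 h in replicates 2 and 3, miR-1246 replicate 3 stays at 156 CPM at 22 h, and predicted miR-162 separates 1 h (3344 to 3574) from 22 h (6259 to 7846) fully.

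Among miRNAs with lower levels at 22 h was predicted miR-906, the sequence from the mitochondrial genome shown above. It stood at 1375, 1024 and 1922 CPM at 1 h, at 2009, 358 and 644 CPM at 6 h and at 549, 202 and 529 CPM at 22 h. The 6 h libraries were spread widely and overlapped both other times, whereas 1 h and 22 h did not overlap. The log2 fold change from 1 h to 22 h was -1.75 (SE 0.32, adjusted p = 0.260 in edgeR), and a call was made without replicate 2 (adjusted p = 0.00339).

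miR-29c, known for targeting extracellular matrix genes, stood at 285, 174 and 249 CPM at 1 h and 56.1, 50.6 and 84.1 CPM at 22 h. The levels did not overlap and the log2 fold change was -1.92 (SE 0.42, adjusted p = 0.260 in edgeR), called without replicate 2 (adjusted p = 0.0415). In replicate 2 at 22 h the level came from 1 count, below the floor of 3 counts, so the depth there could not resolve it. miR-27a-3p, known from fat cell and lipid regulation, stood at 225, 174 and 129 CPM at 1 h and 22.4, 101 and 48.1 CPM at 22 h, with no overlap and a log2 fold change of -1.95 (SE 0.59). Its levels in replicates 1 and 2 at 22 h also came from fewer than 3 counts, so the depth there could not resolve them.

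The miR-15/16 family, with 8 tested members, held 4 of the 19 known miRNAs that lay lower at 22 h without overlap. Of all miRNAs tested, known and predicted together, 12.3% lay lower in that sense. miR-497 stood at 112, 50.6 and 300.3 CPM at 22 h, below all 3 of its 1 h levels (358 to 683), with a log2 fold change from 1 h to 22 h of -1.58 (SE 0.59, adjusted p = 0.388 in edgeR). The 50.6 CPM came from 1 count, and without replicate 3 the log2 fold change was -2.70 and was called (adjusted p = 0.0251 in edgeR). miR-424-5p stood at 864, 387 and 617 CPM at 1 h, 669.8, 179 and 322 CPM at 6 h and 336, 151.9 and 360.4 CPM at 22 h. Its 1 h and 22 h levels did not overlap, although 387 and 360.4 CPM lay close together, and the log2 fold change was -1.14 (SE 0.34). miR-503-5p, encoded beside miR-424, stood at 1798, 1972 and 1782 CPM at 1 h and 751, 1114 and 1057 CPM at 22 h, with no overlap and a log2 fold change of -0.95 (SE 0.29, adjusted p = 0.338 in edgeR). These miRNAs, miR-29c and miR-27a-3p were picked after their values were seen.

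Predicted miR-79 had 22 h levels of 1132, 304 and 1526 CPM, which overlapped those at 6 h and lay below those at 1 h, with a log2 fold change from 1 h to 22 h of -1.22 (SE 0.38, adjusted p = 0.340 in edgeR) and from 6 h to 22 h of 0.10 (SE 0.45). Predicted miR-895 stood at 311, 193 and 119 CPM at 1 h, 82.9, 358 and 373 CPM at 6 h and 22.4, 50.6 and 72.1 CPM at 22 h. The 22 h levels came from 2, 1 and 6 counts and lay below every earlier level, with a log2 fold change from 1 h to 22 h of -2.08 (SE 0.67, adjusted p = 0.348 in edgeR). It missed the count minimum from 6 h to 22 h and was not tested there. miR-202, lower at 6 h, returned in replicate 2 at 22 h, which held 861 CPM against 392 and 336 CPM in replicates 1 and 3. Without replicate 2 its log2 fold change from 1 h to 22 h was -1.84 and was called (adjusted p = 0.000794 in edgeR), against -1.24 (SE 0.53) with all replicates.

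**Figure D2:**
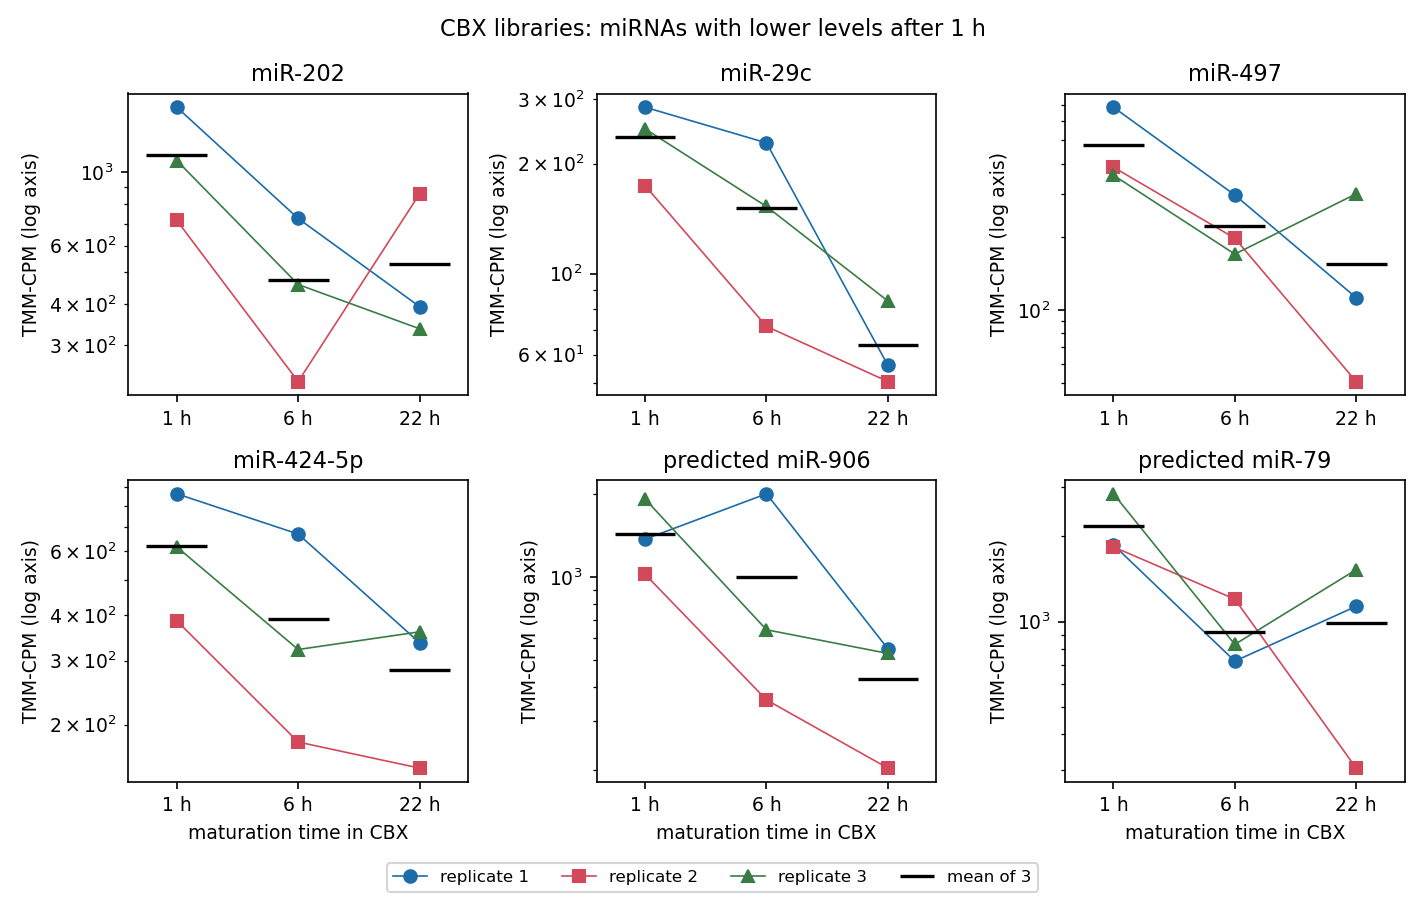
Levels of 6 miRNAs in the 9 CBX libraries, in CPM after TMM scaling on a log axis, against maturation time, with symbols joined by replicate number and black bars for means of 3. miR-29c, miR-424-5p, miR-497 and predicted miR-906 and miR-79 lie lower in all 22 h libraries than in all 1 h libraries, whereas miR-202 replicate 2 returns to 861 CPM.

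For 3 other predicted miRNAs the high level at 22 h was that of replicate 2 alone, the shallowest library. Predicted miR-432 stood at 258, 3746 and 60.1 CPM at 22 h and predicted miR-672 at 146, 2328 and 72.1 CPM. Predicted miR-85 stood at 639, 4505 and 372 CPM there. None of these was called in edgeR with all replicates or in DESeq2. Without replicate 3, edgeR called predicted miR-85 from 6 h to 22 h (2.93, adjusted p = 0.0166) and from 1 h to 22 h (1.96, adjusted p = 0.0236). It was picked after its values were seen.

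Known miRNAs were then read by family and by cell type list. A family shares a seed or a cluster of genes, and the counts below describe the members without a test of the list. Over the whole span, 7 of the 8 tested members of the miR-15/16 family had a log2 fold change below 0. The median of the 8 was -0.80, against -0.26 for all known miRNAs. The member above 0 was miR-16a at 0.32, and the most abundant member, miR-16b, was at -0.22. An unadjusted p under 0.05 in edgeR was found for 3 of the 8, and 4 lay lower at 22 h without overlap. Among all known miRNAs tested these counts were 21 and 19. Both shares were 12.3% of all miRNAs tested, which include predicted ones, and were higher among known miRNAs alone. Of 9 tested members of miR-17-92 and its paralogues, a cluster known for promoting proliferation, 7 were below 0 (median -0.75), from -1.40 for miR-19a through -0.81 for miR-19b to -0.11 for miR-25. miR-92a stood at 0.32 and miR-20b at 0.35. All 5 tested members of miR-23/24/27 were below 0 (median -0.53), as were all 3 of miR-34 and its paralogues (median -0.68). All 4 of miR-26 and miR-29 were below 0 as well, but their median of -0.27 was near the -0.26 of all known miRNAs. Most known miRNAs were below 0 over this span, since only 32.5% of those tested were above it.

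In the main edgeR fit miR-206 of the muscle list was the 1 list member called in any comparison. That fit used TMM scaling, the default count filter, the replicate block and all replicates. Without the count filter, edgeR called miR-155 and miR-29c from 1 h to 22 h. DESeq2 also called miR-155 of the immune list from 1 h to 22 h (adjusted p = 0.000309). With library sizes from deduplicated reads, edgeR called miR-19a, miR-20a, miR-27a-3p, miR-29c, miR-202, miR-335, miR-424-5p, miR-497 and miR-503-5p as lower at 22 h than at 1 h. The same setting called miR-155 as higher (1.94, adjusted p = 0.0276 in edgeR). Under that scaling the median log2 fold change of all miRNAs tested was itself -0.68. Of the 8 tested members of the granulosa and cumulus list, 6 were below 0 from 1 h to 22 h. The median of the 8 was -0.67, against -0.26 for all known miRNAs. Of these 8, 3 lay lower without overlap, against 12.3% of all miRNAs tested, known and predicted together. The 2 members above 0 were miR-132 at 1.02 (SE 0.37, adjusted p = 0.388 in edgeR) and miR-224 at 0.23 (SE 0.67). miR-132 was higher at 22 h in each replicate number, but its times overlapped. The granulosa and cumulus list shares miR-503-5p and miR-424-5p with the miR-15/16 family. Its summed level over time is given above, and the part of residual cumulus cells in these differences was not tested. miR-21-5p, induced in cumulus and granulosa cells around ovulation, stood at 6613, 2957 and 3555 CPM at 1 h, 5828, 3207 and 3594 CPM at 6 h and 4631, 3088 and 4781 CPM at 22 h. Replicate 1 was highest at 1 h and 6 h, the times overlapped, and the log2 fold change from 1 h to 22 h was -0.01 (SE 0.29). DO libraries, cultured without cumulus, held 3833 ± 564, 4196 ± 830 and 5612 ± 852 CPM at the 3 times (SD, n = 3 each).

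The let-7 family, known for promoting differentiation, had opposite signs at the earlier and the later step. In the earlier, 7 of its 8 tested members had a log2 fold change below 0 (median -0.27), and in the later all 8 were above 0 (median 0.32). Of all known miRNAs tested, 34.7% were above 0 at the earlier step and 45.5% at the later. No let-7 member was called with all replicates. The later direction rested on replicate 2, without which 4 of 8 members were above 0, and on the scaling, since 3 of 8 were above 0 when library sizes came from deduplicated reads. Over the whole span 5 of 8 were below 0 (median -0.13).

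**Figure D3:**
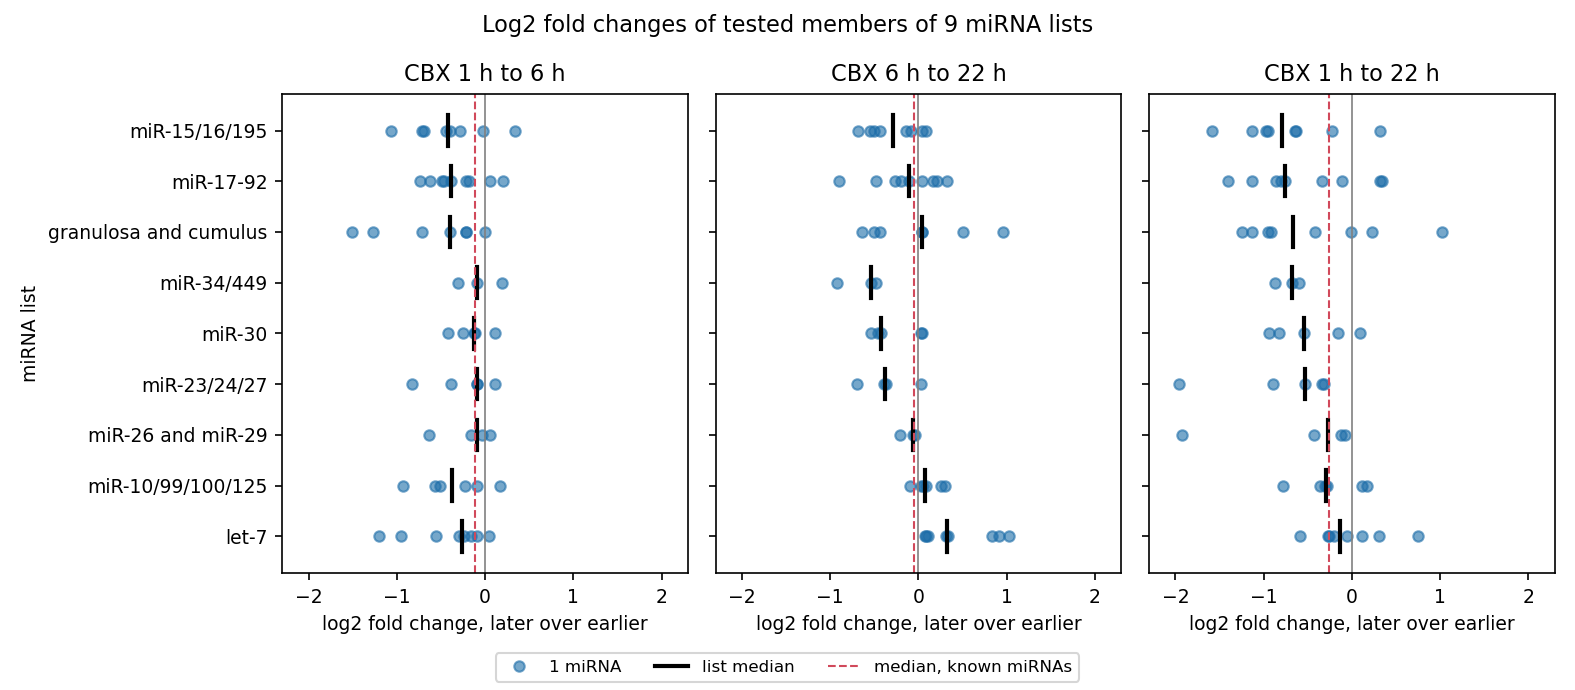
Log2 fold changes of the tested members of 9 miRNA lists in the 3 CBX comparisons, later over earlier time, with list medians as black bars and the median of known miRNAs as a dashed line. From 1 h to 22 h the miR-15/16 (median -0.80) and miR-17-92 (median -0.75) members lie mostly left of that line (-0.26), and of the 8 let-7 members 7 lie left of 0 from 1 h to 6 h and all right of it from 6 h to 22 h.

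The study named 18 miRNAs in its comparisons between cultures, a list chosen on these same libraries. Through CBX maturation 17 of them could be tested at each step. An unadjusted p under 0.05 was found for 2 from 1 h to 6 h, 4 from 6 h to 22 h and 4 from 1 h to 22 h. Over all miRNAs tested the shares were 3.09%, 5.23% and 12.3%. miR-206 was the 1 call. Median log2 fold changes were 0.00, 0.10 and 0.11. The 4 whose 1 h and 22 h levels did not overlap were predicted miR-79, miR-895 and miR-906, which were lower, and predicted miR-162, which was higher at 22 h. That is 4 of 17, near the 20.5% of all tested miRNAs.

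Whether time courses under CBX differed from other cultures was tested as an interaction of culture and time, always with the same CBX libraries. Against control, edgeR called 0 of 469 miRNAs from 1 h to 6 h (0%), 0 of 489 from 6 h to 22 h (0%) and 0 of 547 from 1 h to 22 h (0%). Unadjusted p under 0.05 was found for 8, 21 and 26 miRNAs, and DESeq2 called 0, 0 and 3. The 3 were miR-1246, predicted miR-162 and predicted miR-906. Against co-culture from 1 h to 22 h edgeR called 0 of 519 (0%) with 20 at an unadjusted p under 0.05, and DESeq2 called 2, miR-1246 and predicted miR-457.

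Predicted miR-906 came nearest to a difference from control. In control libraries it stood at 1423, 739 and 2006 CPM at 1 h and at 1385, 1700 and 2565 CPM at 22 h, so the control times overlapped, and all CBX libraries at 22 h (202 to 549 CPM) lay below all control libraries at that time. The change in CBX minus that in control was -2.27 on the log2 scale (SE 0.39, adjusted p = 0.0592 in edgeR). Against co-culture (1060, 881 and 1048 CPM at 22 h) the difference of changes was -1.16 (SE 0.41), and against DO (813, 511 and 707 CPM at 22 h) it was -0.77 (SE 0.50). Neither was called.

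Predicted miR-162 went the other way. Control libraries held 3817, 3476 and 2720 CPM at 1 h and 3475, 3524 and 2324 CPM at 22 h, all below the CBX libraries at 22 h. Its difference of changes was 1.06 against control (SE 0.27, adjusted p = 0.456 in edgeR), 0.58 against co-culture (SE 0.28) and 0.47 against DO (SE 0.31). For miR-1246, control libraries averaged 134.6 ± 16.2 CPM at 22 h (SD, n = 3), and the difference was 4.10 (SE 1.06, adjusted p = 0.456 in edgeR). A single DO library at 22 h, replicate 2, reached 2378 CPM, against 71.3 and 80.3 CPM in the others.

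Control held 6039, 3177 and 4097 CPM of miR-21-5p at 1 h and 9281, 9949 and 7849 CPM at 22 h. Its 22 h libraries, but not its 1 h libraries, lay above every CBX library. The change from 1 h to 22 h in CBX minus that in control was -1.16 (SE 0.34, adjusted p = 0.702 in edgeR), and from 6 h to 22 h it was -1.38 (SE 0.36, adjusted p = 0.365). Control miR-155 averaged 309 ± 143 CPM at 1 h and 7757 ± 4407 CPM at 22 h (SD, n = 3 each), against 667 ± 522 and 3813 ± 1858 CPM in CBX. The difference of changes was -2.20 (SE 0.76, adjusted p = 0.717 in edgeR).

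Against DO, 4 of 520 miRNAs differed in their change from 1 h to 22 h (0.769%), all with a lower change in CBX. Predicted miR-559 stood at 9449, 3325 and 4311 CPM at 1 h and 3274, 658 and 5382 CPM at 22 h under CBX. In DO it stood at 1846, 613 and 3133 CPM at 1 h and at 13970, 11223 and 17142 CPM at 22 h. The DO libraries at 22 h lay above every CBX library at either time. The change in CBX minus that in DO was -4.23 (SE 0.63, adjusted p = 0.00417 in edgeR).

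Predicted miR-560 was counted identically to predicted miR-559 and gave the same value. Predicted miR-835 went from 6008, 2126 and 2509 to 2063, 456 and 3255 CPM under CBX and from 1224, 337 and 1555 to 8582, 6677 and 8772 CPM in DO. Its difference was -4.12 (SE 0.62, adjusted p = 0.00417 in edgeR). Predicted miR-895 went from 77.9, 245.1 and 107.6 to 271, 916 and 787 CPM in DO, where 1 h and 22 h did not overlap, and its difference was -4.43 (SE 0.84, adjusted p = 0.0271 in edgeR).

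All 4 were also called by DESeq2. Between CBX and DO the study had called predicted miR-559 at 1 h and predicted miR-895 at 22 h, on these same libraries. Leaving out replicate 1 or replicate 2 ended all 4 calls (0 each), leaving out replicate 3 left 3, and without the replicate block none was called, with the smallest adjusted p of these 4 at 0.149 in edgeR. Under CBX alone the log2 fold change of predicted miR-559 was -1.10 (SE 0.51, adjusted p = 0.388 in edgeR). It was -1.89 and called without replicate 3 (adjusted p = 0.0184 in edgeR), and -1.83 and called with library sizes from deduplicated reads (adjusted p = 0.0276). Against control and co-culture the difference of changes for predicted miR-559 was -0.56 (SE 1.01) and -1.40 (SE 0.84), neither called.

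**Figure D4:**
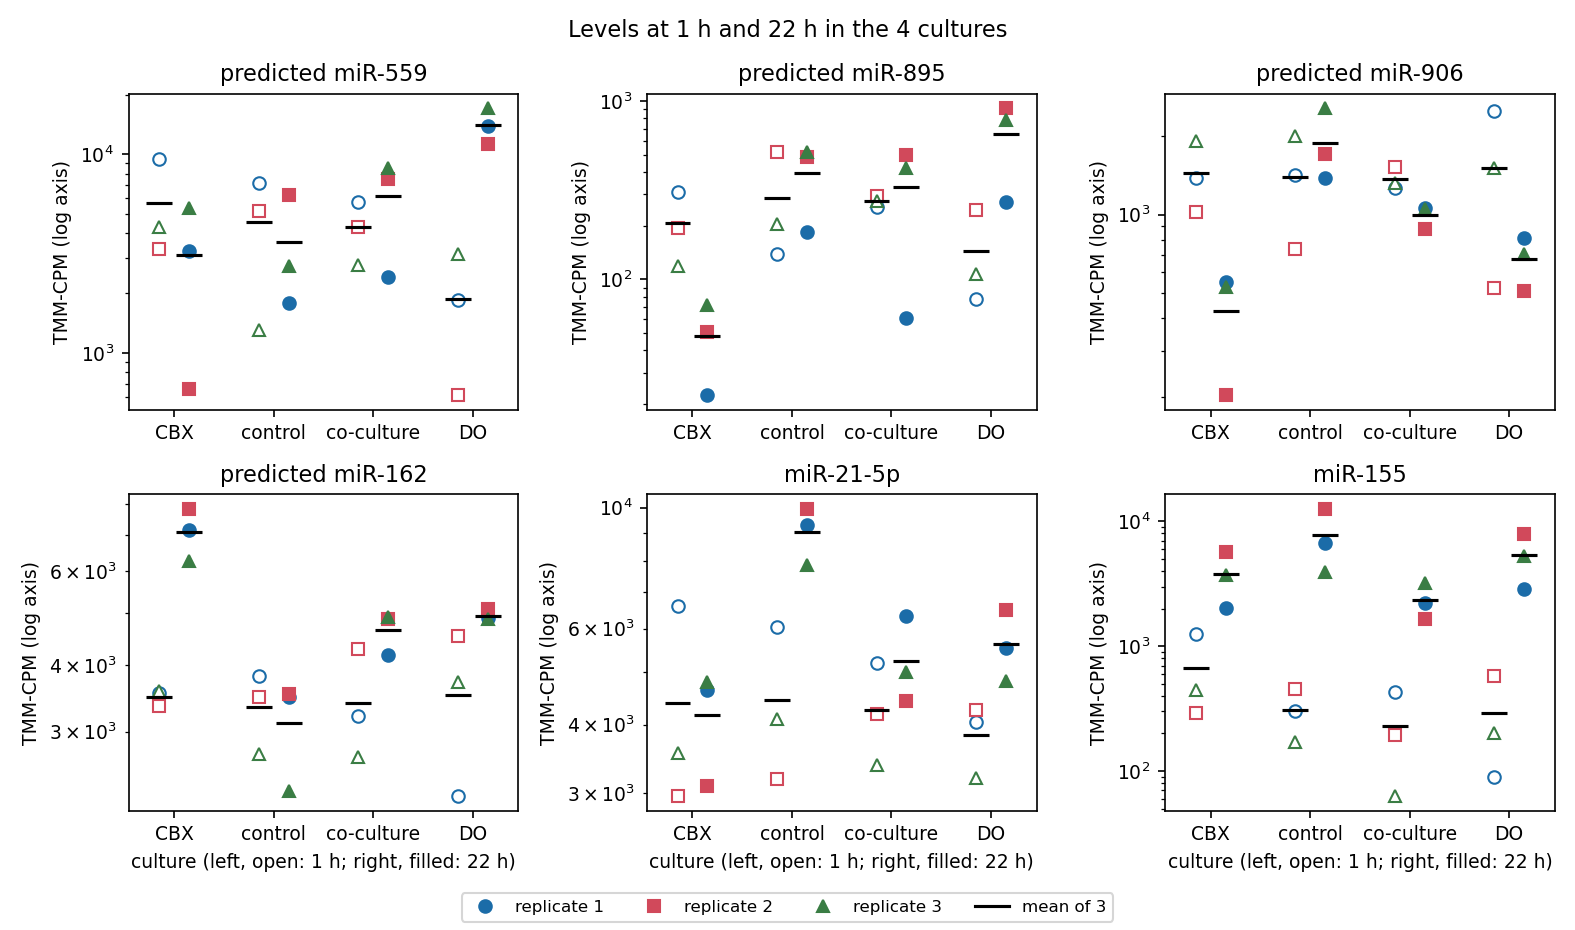
Levels of 6 miRNAs at 1 h (open symbols, left) and 22 h (filled symbols, right) in the 4 cultures, in CPM after TMM scaling on a log axis, with symbols for replicate numbers and black bars for means of 3. Predicted miR-559 is highest in DO at 22 h (11223 to 17142), predicted miR-906 lowest in CBX at 22 h in its mean (427), and predicted miR-162 highest in CBX at 22 h (6259 to 7846).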

How the data were processed

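Small RNA libraries with molecular identifiers were sequenced from oocytes. The authors deposited raw counts per mature miRNA, known and predicted, as deduplicated tables, made with miRPro on the ARS-UCD1.2 build. The submitters' notes name FastQC 0.11.9 and UMI-tools 1.1.2. Identifiers limit amplification copies, but intervals of depth still cover counting error only.

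Here the 9 CBX libraries and 27 libraries of the other cultures were used, and 3 control libraries at 0 h were not. Each comparison was fitted in edgeR 4.0.16 (R 4.3.3, limma 3.58.1) over all miRNAs with TMM scaling, the default count filter (minimum 10, total 15), the quasi-likelihood F-test with the replicate number as block, and Benjamini-Hochberg adjustment. A call needed an adjusted p under 0.05 with a log2 fold change of 1 or more in size. CPM values share one TMM scale over 36 libraries. DESeq2 1.42.0, other scalings, filters and fits, and leaving out each replicate were the alternatives. Replicates of a time differed beyond counting noise (chi-square per degree of freedom 5.59 to 16.6). Scripts were tested on simulated data. The members and lists were chosen with earlier results of these data known. miRNAs were named when called, when among the 10 most abundant known ones, or when named by the study, miR-21-5p and miR-155 were set by name, and any other is stated as picked afterwards.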

Additional observations from a re-analysis of the deposited data

Results flagged for a closer look

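The 4 differences of time change between CBX and DO are listed because a test of the difference itself passed in edgeR, from 1 h to 22 h. The change in CBX minus that in DO was -4.23 on the log2 scale for predicted miR-559 and for predicted miR-560, which had identical counts, -4.12 for predicted miR-835 and -4.43 for predicted miR-895. The predicted miR-559 and miR-895 sequences contain only G and C, and their part in the difference was not tested.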

How the results depend on the processing

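Depth limited low miRNAs most at 22 h, where replicate 2 held 18796 counts and 3 counts stood for 159.6 CPM. For the 1 call from 6 h to 22 h, the count was 0 without the replicate block, with library sizes from deduplicated reads, without the low-count filter and in joint fits over 9 or 36 libraries. It was also 0 with the stricter filter and with predicted miRNAs alone, which do not test miR-206, and 0 to 4 when each replicate was left out. From 1 h to 6 h leaving out replicates gave 0 to 1. From 1 h to 22 h, where edgeR called 0, library totals alone gave 1, deduplicated reads 26 (2 higher, 24 lower), DESeq2 4, no filter 12 (9 higher, 3 lower), the 36-library fit 1 and leave-one-out 0 to 13. With deduplicated reads the median log2 fold change of all miRNAs was -0.22, -0.54 and -0.68 for the earlier, the later and the whole span, against -0.02, -0.01 and -0.01 with TMM scaling. The 0 calls of the difference from control became 5 from 6 h to 22 h without a filter, and from 1 h to 22 h 1 with robust fitting, 3 with DESeq2 and 0 to 1 by leave-one-out. The difference from co-culture became 2 with DESeq2. The 4 calls against DO became 0 without the block and 0 to 3 by leave-one-out. The cause of these differences was not tested. The adjusted p of miR-206 ranged from 2.1e-07 to 0.977 in edgeR over its alternatives.

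miR-21-5p, at -0.01 from 1 h to 22 h, turned positive with DESeq2 size factors (0.0284), DESeq2 (0.0287), the stricter filter (0.0846), known miRNAs alone (0.20), identical miRNAs tested once (0.0828), the 9-library fit (0.0185) and without replicate 1 (0.28), with a range of -0.24 to 0.28 when each replicate was left out. Deviations of libraries with the same number correlated over miRNAs at 0.11, 0.46 and 0.01 from 1 h to 6 h, at 0.39, 0.30 and -0.05 from 6 h to 22 h and at 0.06, 0.19 and 0.07 from 1 h to 22 h. In 4 of these 9 pairs of libraries the same number gave the best correlation, so the data did not show that the numbers pair the libraries. Of the 589 values recomputed, 516 kept their direction and side of the threshold, 47 gained a call, 19 lost one and 7 changed direction. Most of the 589 had no call in the main fit, so the 516 mainly count values that stayed uncalled. They do not measure how stable the calls were.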
